A study of Mus musculus with 15 samples.

Results

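The comparison described here sets 1 mouse embryo section from embryonic day 12 (E12) against 3 such sections from embryonic day 10 (E10), all measured with pixels 50 µm wide. These are 4 of the 11 transcript samples of a series of 15 samples, chosen by the stage and pixel width in their labels, and pseudogene features were left out. The series used barcoding in tissue, in which barcodes flowed through parallel channels in 1 direction and then across it give each crossing of channels its own pixel. The labels give the tissue as embryo and the organism as mouse, and they name no strain, sex, embryo or body part for any section. No treatment or altered allele is named in either group. The E10 libraries are called replicates 1, 2 and 3 below. Nothing in the labels says that they came from separate embryos, so p-values measure only the spread between these samples.

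Between these stages a mouse embryo moves from early to middle organ formation. The liver becomes the main site of blood formation and releases red cells that carry adult haemoglobin chains, whereas earlier red cells from the yolk sac carry embryonic chains. Limbs grow out, cartilage models of the skeleton condense, and skeletal muscle fibres begin to form. Neural progenitors give way to neurons along the brain and spinal cord.

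The E12 library held 6100333 counts in 1535 tissue pixels, with a median of 3338 counts per pixel. The E10 replicates held 10570814, 7811201 and 9936404 counts in 859, 829 and 839 tissue pixels, with medians of 10545, 7657 and 9927. The E12 section filled 61.4% of the grid and reached 2 of its edges with at least 10 pixels, while the E10 sections filled 33.2% to 34.4%, and replicate 3 alone of them reached 1 edge in that way. Stage, region of the body, embryo and batch cannot be told apart in this comparison. In summed counts, fewer cells of a type and less RNA per cell cannot be told apart either.

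Levels below are CPM, counts scaled to a total of 1e6, over non-pseudogene counts summed over tissue pixels, and they are not scaled by gene length. Changes are log2 fold changes of E12 against E10 with their standard error (SE), from the quasi-likelihood test of edgeR with Benjamini-Hochberg adjustment over 15935 genes, and a gene is called at an adjusted p below 0.05. The single E12 library has no replicate, so its spread was taken from the other groups of the series, in a fit of 6 group means to 11 libraries that left 5 residual degrees of freedom. An exact permutation test of 1 library against 3 cannot go below p = 0.25 and was not used. The median log2 fold change of all tested genes was -0.02.

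The test called 346 genes, or 2.17% of those tested. Of these, 310 were higher at E12 (1.95%) and 36 were lower (0.226%). In all 346 the E12 level lay outside the range of the E10 replicates, and 35 of the higher genes had no count in any E10 replicate. Genes above all 3 E10 replicates made up 35.3% of those tested, and genes below all 3 made up 29.3%, so lying outside the E10 range was common. Counts of such genes are given below for some of the gene lists and are to be read against these shares. The calls moved with the libraries in the fit. Leaving out E10 replicate 1, 2 or 3 left 45, 117 or 57 calls, leaving out either E11 library with 25 µm pixels left 113 or 102, and leaving out either E11 library with 10 µm pixels gave 1015 or 1000. Of 77 called genes named by the rule given under the processing, 17 were called under every alternative in which they were tested (18 or 19 of 19): the globins Hbb-bs, Hbb-bt and Hbb-bh1, the erythroid gene Tspo2, the liver gene Ahsg, the Hox genes Hoxa10, Hoxc9 and Hoxd11, the muscle myosins Myh3 and Myh8, the cartilage genes Acan, Col9a3 and Matn4, and Krt15, S100b, Hspa8 and Rpl29.

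Adult globin transcripts rose at E12 and 1 embryonic globin fell. The start regions of the globin genes are shown because 4 of these genes rose together. The windows run from 120 bases before to 10 bases after the start of each gene, are credited to RefSeq (build GRCm38.p6) and are written 5′ to 3′ on the gene's strand. Capitals mark the CACCC motif, the CCAAT motif and the TATAA motif, searched on both strands, so that ATTGG is a CCAAT match on the other strand. In Hbb-bt an ATTGG match lies directly beside a CCAAT match, without overlap.
Hbb-bs, an adult β chain, chr7:103827919-103828048, minus strand: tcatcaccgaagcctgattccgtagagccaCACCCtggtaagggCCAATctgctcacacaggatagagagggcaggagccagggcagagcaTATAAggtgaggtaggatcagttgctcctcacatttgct
Hbb-bt, an adult β chain, chr7:103813914-103814043, minus strand: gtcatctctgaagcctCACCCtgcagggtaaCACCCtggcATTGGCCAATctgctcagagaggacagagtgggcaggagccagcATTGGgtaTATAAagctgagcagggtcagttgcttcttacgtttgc
Hbb-y, an embryonic β-like chain, chr7:103853198-103853327, minus strand: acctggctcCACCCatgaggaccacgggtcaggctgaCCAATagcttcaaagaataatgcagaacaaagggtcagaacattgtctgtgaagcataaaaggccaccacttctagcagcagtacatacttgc
Hba-a1, an adult α chain, chr11:32283552-32283681, plus strand: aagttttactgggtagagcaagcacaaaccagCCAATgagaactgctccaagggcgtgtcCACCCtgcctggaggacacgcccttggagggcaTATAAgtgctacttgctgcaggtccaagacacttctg
Hba-x, an embryonic α-like chain, chr11:32276480-32276609, plus strand: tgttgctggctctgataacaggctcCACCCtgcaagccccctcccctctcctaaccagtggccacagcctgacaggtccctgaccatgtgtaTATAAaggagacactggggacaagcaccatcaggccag
The window of Hba-a2 also held all 3 motifs, and 6 of the 7 globin genes were matched to a window. Among 32851 windows of the same length, 33.4% held CACCC, 22.3% CCAAT, 12.5% TATAA and 0.788% all 3. A match is a description of letters in a window and not a site of binding.

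Hbb-bs stood at 9493 CPM at E12 and at 198, 133 and 118 CPM in E10 replicates 1 to 3. Its log2 fold change was 5.97 (SE 0.39, edgeR adjusted p = 2.32e-05). Hbb-bt stood at 8902 CPM against 435, 369 and 307 CPM, a log2 fold change of 4.56 (SE 0.36, edgeR adjusted p = 3.85e-05). Both adult β chains were far above all E10 replicates, which lay close to each other. Hba-a1 stood at 34064 CPM against 4303, 7009.7 and 3442 CPM, and rose by 2.75 on the log2 scale (SE 0.43, edgeR adjusted p = 0.00803). Hba-a2 stood at 22476 CPM against 3779, 5681 and 2898 CPM, and rose by 2.41 (SE 0.43, edgeR adjusted p = 0.0171). The 2 α genes, and likewise the 2 adult β genes, are near-identical in sequence, so the split of counts within each pair is uncertain. Without E10 replicate 1 the test called 2 of the 4 adult globins, and without replicate 3 it called 3.

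The embryonic chains did not share 1 direction. Hbb-bh1 stood at 255 CPM at E12 against 3280.3, 2350.3 and 1669.8 CPM, and its log2 fold change was -3.27 (SE 0.51, edgeR adjusted p = 0.00701). Hbb-y, the other embryonic β-like chain, stood at 17347 CPM against 10771, 12072 and 6089 CPM (log2 fold change 0.81, edgeR adjusted p = 0.408). Hba-x stood at 2709 CPM against 5042, 6517 and 3118 CPM (log2 fold change -0.89, edgeR adjusted p = 0.42). Neither of the latter pair was called, although each lay outside the E10 range.

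Within the β-like counts, adult chains made up 51.1% at E12 and 4.31%, 3.36% and 5.19% in the E10 replicates. Hbb-y made up 48.2% at E12 against 73.3%, 80.9% and 74.4%. Hbb-bh1 made up 0.709% against 22.3%, 15.7% and 20.4%. The adult chains had thus reached about the level of Hbb-y in this section, and the share of Hbb-bh1 was small. Among α-like counts, the adult genes made up 95.4% at E12 against 61.6%, 66.1% and 67.0%. The 7 globins together took 9.52% of all counts at E12 against 2.78%, 3.41% and 1.76%, and leaving them out of the library totals gave 324 called genes.

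**Figure D1:**
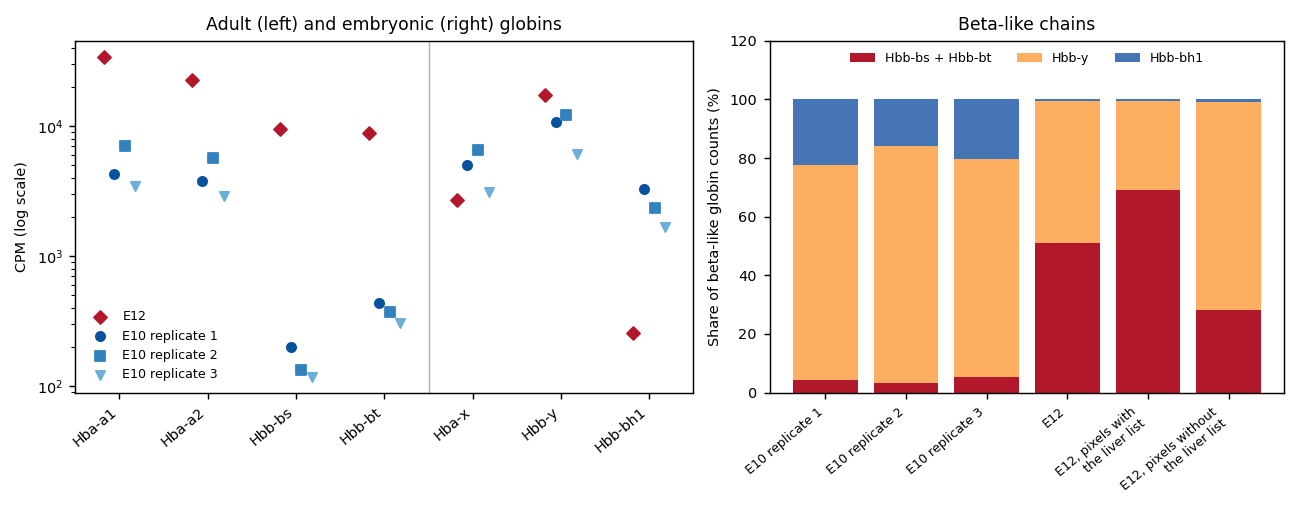
Left, levels of the 7 globin genes in CPM on a log axis, 1 point per library, where Hbb-bs and Hbb-bt go from at most 435 CPM at E10 to at least 8902 CPM at E12 and Hbb-bh1 from at least 1669.8 CPM to 255 CPM. Right, stacked bars of the share of β-like counts in percent, where Hbb-bs and Hbb-bt together reach 51.1% at E12, 69.0% in E12 pixels with the liver list and 28.3% in those without.

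The globin mixture differed between regions of the E12 section. Pixels were thinned to 1000 counts each, and a pixel was counted for a gene list when it held at least 3 counts of the list (30 for globins). This kept 1514 of 1535 E12 pixels and every E10 tissue pixel. A 50 µm pixel can hold several cells, pixels are not replicates, and intervals given for them cover counting error only. In the 575 E12 pixels with liver secreted proteins, adult chains made up 69.0% of β-like counts (exact 95% interval 68.8% to 69.3%), and in the other 939 they made up 28.3% (28.0% to 28.6%). Globins took 15.0% of all counts in the first set and 6.23% in the second. The adult globins together stood at 130310 CPM in liver-list pixels and 41434 CPM elsewhere, while the embryonic globins stood at 19209 and 20861 CPM. The adult chains were therefore 3.15 times as high in the liver-list pixels, and the embryonic chains 0.921 times. Even outside the liver-list pixels, the adult share of β-like counts was above that of every E10 replicate.

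Some genes of red cell maturation were also higher at E12. Of 33 tested genes for erythroid regulators, heme synthesis and the red cell membrane, 11 were higher at E12 and none lower, 31 lay above all E10 replicates, and the median log2 fold change was 1.61. Their summed level was 3201 CPM at E12 against 1193, 1082 and 1069 CPM. Car2, a carbonic anhydrase of red cells, stood at 434 CPM against 77.9, 105 and 77.7 CPM (log2 fold change 2.29, SE 0.40, edgeR adjusted p = 0.0151). Rhd, a membrane protein of the Rhesus complex, stood at 72.0 CPM against 16.4, 14.9 and 10.9 CPM (log2 fold change 2.33, SE 0.42, edgeR adjusted p = 0.0169). In each of these genes the E10 replicates lay well under the E12 library, and E12 lay outside the E10 range in every called gene. Tspo2, a membrane protein of late red cell precursors, stood at 17.9 CPM against 0, 0 and 0.101 CPM, and its ratio was 506 (95% counting interval 88.9 to 20167; edgeR adjusted p = 0.00242).

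Heme synthesis was covered by several of these calls. Alas2, the red cell form of the first enzyme of the pathway, stood at 152 CPM against 50.3, 47.8 and 49.0 CPM (edgeR adjusted p = 0.0496). Alad, the next enzyme, stood at 210.3 CPM against 64.7, 46.1 and 50.4 CPM (edgeR adjusted p = 0.0171). Fech, which inserts the iron, stood at 134 CPM against 42.9, 38.3 and 45.9 CPM (edgeR adjusted p = 0.0322). These enzymes were chosen here by their place in the pathway, after their values had been seen. The transcription factors Klf1 and Gata1, which drive red cell genes, were not called. Klf1 stood at 39.5 CPM against 6.81, 6.02 and 6.34 CPM (edgeR adjusted p = 0.0846), and Gata1 at 23.6 CPM against 5.96, 4.10 and 4.83 CPM (edgeR adjusted p = 0.0776). Bcl11a, a repressor of embryonic globins, stood at 200 CPM against 135, 188 and 169 CPM (edgeR adjusted p = 0.833). The count of 11 erythroid calls was 2, 3 or 1 without E10 replicate 1, 2 or 3, 4 or 3 without either E11 25 µm library, and 22 without either E11 10 µm library. In the E12 section, 77.9% of the list's counts lay in the liver-list pixels, which were 38.0% of pixels.

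Liver transcripts were present at E12 and nearly missing from the E10 sections. Of 36 tested genes for proteins that the liver secretes, 11 were called higher and none lower, and 35 lay above all E10 replicates. The median log2 fold change was 7.96, or 8.17 with genes that had no E10 count set at their lower bound and those with 1 to 3 E10 counts at their count ratio, 6 genes in all. The list summed to 5910 CPM at E12 and to 211, 108 and 223 CPM at E10, a ratio of 32.8 to the E10 mean. It includes Ttr, which the list of choroid plexus and ependyma also holds, so the E10 sums need not come from liver. Ahsg, a plasma carrier of calcium phosphate, stood at 76.4 CPM against 0, 0.128 and 0 CPM (ratio 2163, counting interval 386 to 85624; edgeR adjusted p = 3.34e-05). Kng1, the precursor of bradykinin, stood at 37.9 CPM against 0, 0 and 0.101 CPM (edgeR adjusted p = 0.0115). Serpind1, an inhibitor of thrombin, stood at 35.4 CPM against 0, 0 and 0.101 CPM (edgeR adjusted p = 0.0212). Proc, the precursor of the anticoagulant protein C, stood at 11.6 CPM against 0, 0.128 and 0 CPM (edgeR adjusted p = 0.0199).

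The abundant liver transcripts were not among the calls. Afp, the fetal counterpart of albumin, stood at 2113 CPM at E12 against 0.0946, 0 and 2.31 CPM, with an edgeR adjusted p = 0.0864. Alb, albumin, stood at 724 CPM against 0, 0 and 1.31 CPM, with an edgeR adjusted p = 0.14. Both were far above every E10 replicate, but the test takes its spread from all groups. Afp varied in the E11 libraries, from 781 to 1240.1 CPM with 25 µm pixels and from 47.8 to 3187 CPM with 10 µm pixels. Without E10 replicate 1, 2 or 3, the list had 1, 3 or 2 calls, without either E11 25 µm library 4 or 3, and without either E11 10 µm library 34.

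Of 15 tested factors and enzymes of hepatocytes, 4 were higher. Of the 15, 10 lay above all E10 replicates, 2 below and 3 within, and the median log2 fold change was 4.08. The summed level of the list was not higher, at 277 CPM at E12 against 359, 214 and 573 CPM. The list marked 0.594% of E12 pixels against 0.603% to 4.17% at E10. Foxa3, a pioneer factor of the endoderm, stood at 9.67 CPM at E12 and had no E10 count, so it was at least 91.3-fold higher when the E10 group was set at a floor of 3 counts (edgeR adjusted p = 0.0311). Hnf4a, the main nuclear receptor of hepatocyte identity, stood at 11.3 CPM against 0.0946, 0 and 0 CPM (ratio 320, counting interval 55.6 to 12832; edgeR adjusted p = 0.0434). The list also holds Onecut2, which is expressed in neurons as well, at 69.0 CPM against 291, 157 and 458 CPM (edgeR adjusted p = 0.116). The 4 calls became 0, 2 or 1 without E10 replicate 1, 2 or 3, and 8 without either E11 10 µm library. Other called genes without an E10 count included Fabp1, a fatty acid carrier of liver and gut, at 14.6 CPM and at least 138-fold higher, and Spink1, a trypsin inhibitor, at 11.3 CPM and at least 107-fold higher. Both of these calls were lost without any single E10 replicate or E11 25 µm library, with edgeR adjusted p from 0.0625 to 0.12.

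The liver list marked 38.0% of E12 pixels against 2.10%, 0.362% and 1.79% of E10 pixels. Ttr, its member shared with the choroid plexus list, was found in at least 5% of pixels in E10 replicates 1 and 3. Afp and Alb did not reach that share in any E10 replicate, so E10 pixels with the list need not be liver. At E12 the liver list occupied 1 large block of the section and smaller patches. Genes outside the list were ranked by their ratio between these pixels and the others, and 2 from the top of that ranking are given. Their large contrast follows from that choice. The complement component C3 stood at 187 CPM in liver-list pixels and 10.0 CPM in the others. Rhag, a red cell membrane protein, stood at 140 CPM and 9.23 CPM. That liver-list pixels also carried red cell transcripts was given above for the erythroid list, which was not picked by this ranking. These values cover all liver-list pixels and do not separate the large block from the smaller patches. Connective tissue matrix genes were lower there, at 5555 CPM against 9001 CPM in the other pixels.

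**Figure D2:**
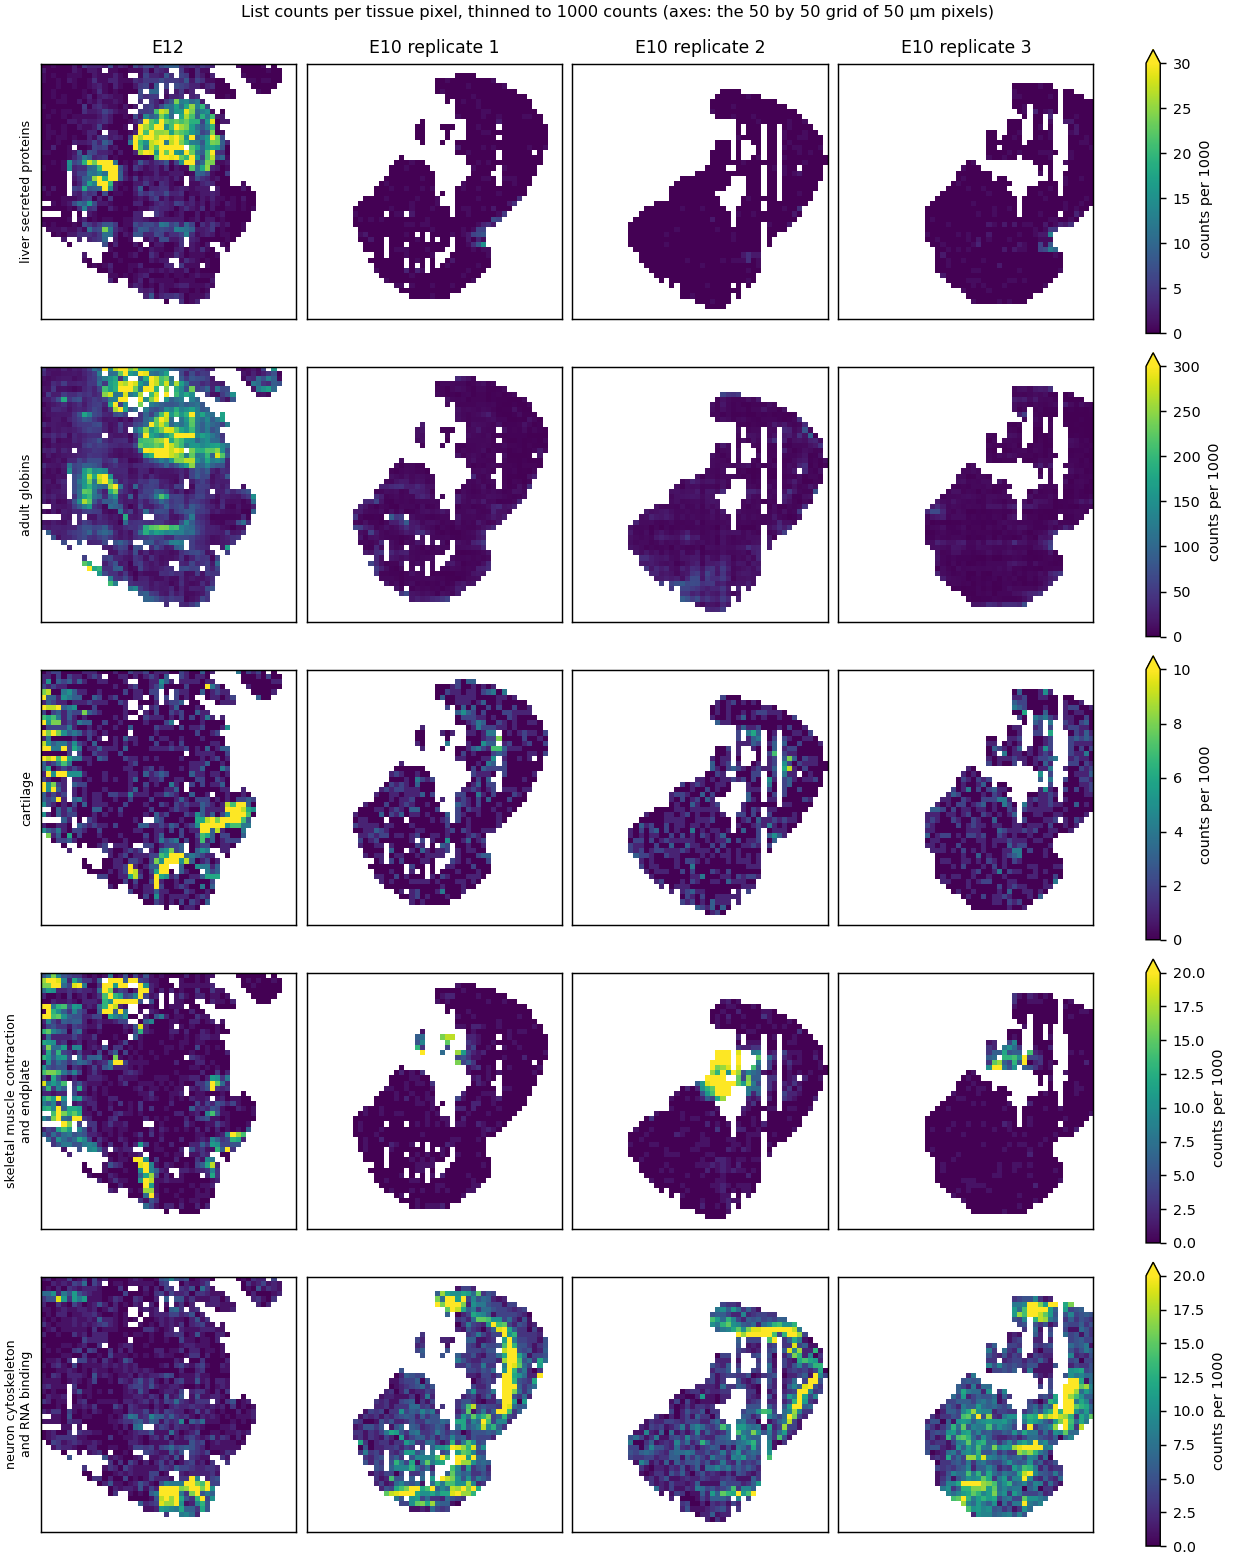
Maps of tissue pixels on the 50 by 50 grid for the E12 section and the 3 E10 sections (columns), coloured by the counts of 5 gene lists (lines of panels) in 1000 counts per pixel, with white where no tissue pixel was kept. At E12 the liver list fills 1 large block and smaller patches, the adult globins fill those and a block at the top edge, and cartilage forms a strip at the left and short rods at the lower right; the E10 muscle-list counts sit in 1 patch per section.

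Connective tissue and skeletal genes formed the next group. Of 29 tested genes for connective tissue matrix, 10 were higher at E12 and none lower, 28 lay above all E10 replicates, and the median log2 fold change was 2.25. The list summed to 7708 CPM against 2607, 3146 and 2451 CPM. Ogn, a small matrix proteoglycan, stood at 62.6 CPM against 3.97, 7.04 and 2.31 CPM (log2 fold change 3.78, SE 0.60, edgeR adjusted p = 0.00933). Col6a3, a chain of the collagen around cells, stood at 81.1 CPM against 8.80, 11.6 and 5.64 CPM (log2 fold change 3.19, SE 0.45, edgeR adjusted p = 0.00423). Col1a1, a chain of the main fibre collagen of bone and skin, stood at 416 CPM against 68.9, 77.3 and 59.7 CPM (log2 fold change 2.57, SE 0.46, edgeR adjusted p = 0.0178). The E12 level lay outside the E10 range in each, as in every called gene. Col3a1, another fibre collagen, stood at 1193 CPM against 506, 585 and 315 CPM and was not called (edgeR adjusted p = 0.128). The 10 calls became 1, 4 or 2 without E10 replicate 1, 2 or 3, 4 without either E11 25 µm library, and 17 without either E11 10 µm library.

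Some cartilage genes rose. Of 19 tested, 6 were higher and none lower, 15 lay above all E10 replicates, and the median log2 fold change was 1.72. Col9a3, a chain of cartilage collagen IX, stood at 106 CPM against 9.55, 5.50 and 5.23 CPM (log2 fold change 3.95, SE 0.46, edgeR adjusted p = 0.00151). Acan, the main proteoglycan of cartilage, stood at 22.0 CPM against 0.378, 0.384 and 0.403 CPM (log2 fold change 5.73, SE 0.73, edgeR adjusted p = 0.0029). Matn4, a matrix adaptor protein, stood at 45.1 CPM against 0.568, 0.256 and 0 CPM (log2 fold change 7.21, SE 0.87, edgeR adjusted p = 0.00188). These 3 genes were low or near 0 in every E10 replicate. Sox9, which turns on the cartilage program, stood at 174 CPM against 174, 166 and 232 CPM, within the E10 range (edgeR adjusted p = 0.913). Col2a1, the main cartilage collagen, stood at 619.6 CPM against 276, 218 and 286 CPM (edgeR adjusted p = 0.368). Runx2, the factor that starts bone formation, stood at 48.2 CPM against 1.61, 1.79 and 0.906 CPM (log2 fold change 5.03, SE 0.63, edgeR adjusted p = 0.00233). It belongs to a separate bone list and was the only call among its 10 tested genes. In that list 6 genes lay above all E10 replicates, 1 below and 3 within, with a median log2 fold change of 0.58. Without any single E10 replicate or E11 25 µm library the cartilage calls were 4, and without either E11 10 µm library they were 9. Cartilage-list pixels were 18.4% of the E12 section against 6.29%, 6.76% and 6.79%. Of the 278 E12 pixels, 97.1% also carried the connective tissue list, which marked 87.5% of all E12 pixels.

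Among 26 tested transcription factors of limb and facial mesenchyme, 4 were higher and none lower, while 18 lay above and 5 below the E10 replicates. Tbx4, the hindlimb factor, stood at 21.1 CPM against 0.284, 1.54 and 1.31 CPM (log2 fold change 4.31, SE 0.81, edgeR adjusted p = 0.0217). Osr1, a factor of lateral mesoderm and early kidney, stood at 64.9 CPM against 8.80, 7.94 and 10.6 CPM (log2 fold change 2.81, SE 0.35, edgeR adjusted p = 0.00233). Osr2 and Twist2 were the other 2. Tbx5, the forelimb and heart factor, stood at 23.4 CPM against 0.946, 2.56 and 5.13 CPM and was not called (edgeR adjusted p = 0.471). The 4 calls became 1, 1 or 2 without E10 replicate 1, 2 or 3, 2 without either E11 25 µm library, and 6 without either E11 10 µm library.

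Skeletal muscle was a distinct program of the E12 section. Of 26 tested genes for skeletal muscle contraction and the nerve endplate, 10 were higher and none lower, 25 lay above all E10 replicates, and the median log2 fold change was 2.91. Myh3, embryonic myosin, stood at 221 CPM against 1.70, 1.54 and 2.11 CPM (log2 fold change 6.91, SE 0.50, edgeR adjusted p = 2.51e-05). Myh8, perinatal myosin, stood at 57.0 CPM against 0.189, 0.256 and 0.201 CPM (log2 fold change 7.91, SE 0.79, edgeR adjusted p = 0.000877). Neither myosin reached 3 CPM in any E10 replicate. Cdh15, an adhesion protein of muscle precursors, stood at 19.7 CPM against 0.284, 0.640 and 0 CPM (edgeR adjusted p = 0.00701). Casq2, which stores calcium in muscle, stood at 25.2 CPM against 0.378, 0.896 and 0.201 CPM (edgeR adjusted p = 0.00701). The 10 calls became 5, 5 or 4 without E10 replicate 1, 2 or 3 and 5 without either E11 25 µm library.

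The list of muscle determination also holds genes of muscle cell fusion. Of 13 tested, 4 were called higher and none lower. In the list 8 lay above all E10 replicates, 3 below and 2 within, with a median log2 fold change of 1.22. Myog, which starts terminal differentiation, stood at 19.3 CPM against 0.378, 0.384 and 0.201 CPM (log2 fold change 5.81, SE 0.74, edgeR adjusted p = 0.00242). Myod1, the determination factor, stood at 13.6 CPM against 0.851, 0 and 0.201 CPM (log2 fold change 5.12, SE 1.03, edgeR adjusted p = 0.0268). Tmem8c, the fusion protein also named myomaker, stood at 22.8 CPM with no E10 count and was at least 215-fold higher (edgeR adjusted p = 0.00428). Gm7325, listed for its role in the same fusion step, was the fourth, at 7.21 CPM against 0.189, 0 and 0.101 CPM (edgeR adjusted p = 0.0231). Pax3, which marks precursors and also the dorsal neural tube, stood at 14.3 CPM against 82.7, 72.5 and 72.1 CPM and was not called (edgeR adjusted p = 0.388). The 4 calls became 2 without any single E10 replicate or E11 25 µm library.

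Heart muscle genes gave no call in either direction. Of 18 tested, edgeR called 0, none had an unadjusted p below 0.05, and DESeq2 also called 0. The list summed to 845 CPM at E12 against 765, 1260.4 and 632 CPM, so the E12 library lay among the E10 replicates. Tnnt2, cardiac troponin T, stood at 204 CPM against 478, 335 and 293 CPM (edgeR adjusted p = 0.926). Myl7, the atrial light chain, stood at 245 CPM against 97.8, 148 and 136 CPM (edgeR adjusted p = 0.907). Ttn, the giant spring protein of both muscle types, stood at 926 CPM against 77.9, 852 and 102 CPM, with E10 replicate 2 close to the E12 library. Heart-list pixels were 5.42% of the E12 section against 5.82%, 12.2% and 6.91%.

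Muscle-list pixels at E12 fell into 2 kinds. Of 443, 70 also carried the heart list and 373 did not. In those 373, Myh3 stood at 790 CPM and the atrial myosin Myh6 at 32.7 CPM. In the 70, Myh6 stood at 4255 CPM and Myl7 at 5655 CPM, and the adult globins summed to 119472 CPM against 37415 CPM in the 373. At E10, 75.9%, 82.8% and 91.1% of muscle-list pixels also carried the heart list, against 15.8% at E12. Muscle-list pixels at E10 were thus mostly pixels with heart genes. The muscle list itself includes Ttn and Actc1, which were higher in E12 pixels with the heart list. Ttn stood at 8605 CPM in the 70 and 2476 CPM in the 373, and Actc1 at 3694 and 1319 CPM. Part of the overlap can therefore follow from the make-up of the list. Muscle-list pixels were 29.3% of the E12 section against 3.38%, 11.9% and 5.36%, and these shares do not measure skeletal muscle alone.

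Smaller groups of the body wall and vessels also held calls. Of 13 tested smooth muscle and pericyte genes, 2 were higher. Myh11, smooth muscle myosin, stood at 71.0 CPM against 2.65, 3.07 and 1.51 CPM (log2 fold change 4.85, SE 0.78, edgeR adjusted p = 0.0135). Cspg4, a surface proteoglycan of pericytes and cartilage cells, stood at 71.8 CPM against 5.39, 7.81 and 6.74 CPM (edgeR adjusted p = 0.0437). Both calls were lost without any single E10 replicate or either E11 25 µm library, and without either E11 10 µm library there were 5. Of 25 endothelial genes, Lyve1, a receptor of lymph and liver vessels, was the only call, at 30.5 CPM against 1.51, 2.43 and 2.01 CPM (edgeR adjusted p = 0.0175). Its call was lost without any single E10 replicate or E11 25 µm library, with an edgeR adjusted p from 0.0544 to 0.103. Krt5, Krt14 and Krt15, keratins of the basal layer of skin, were the 3 calls among 24 epithelial genes. Krt15 stood at 15.2 CPM against 0.189, 0.512 and 0.403 CPM (log2 fold change 5.30, SE 0.72, edgeR adjusted p = 0.00433). Of those 3, 1 was still called without E10 replicate 1 and 2 without replicate 3.

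**Figure D3:**
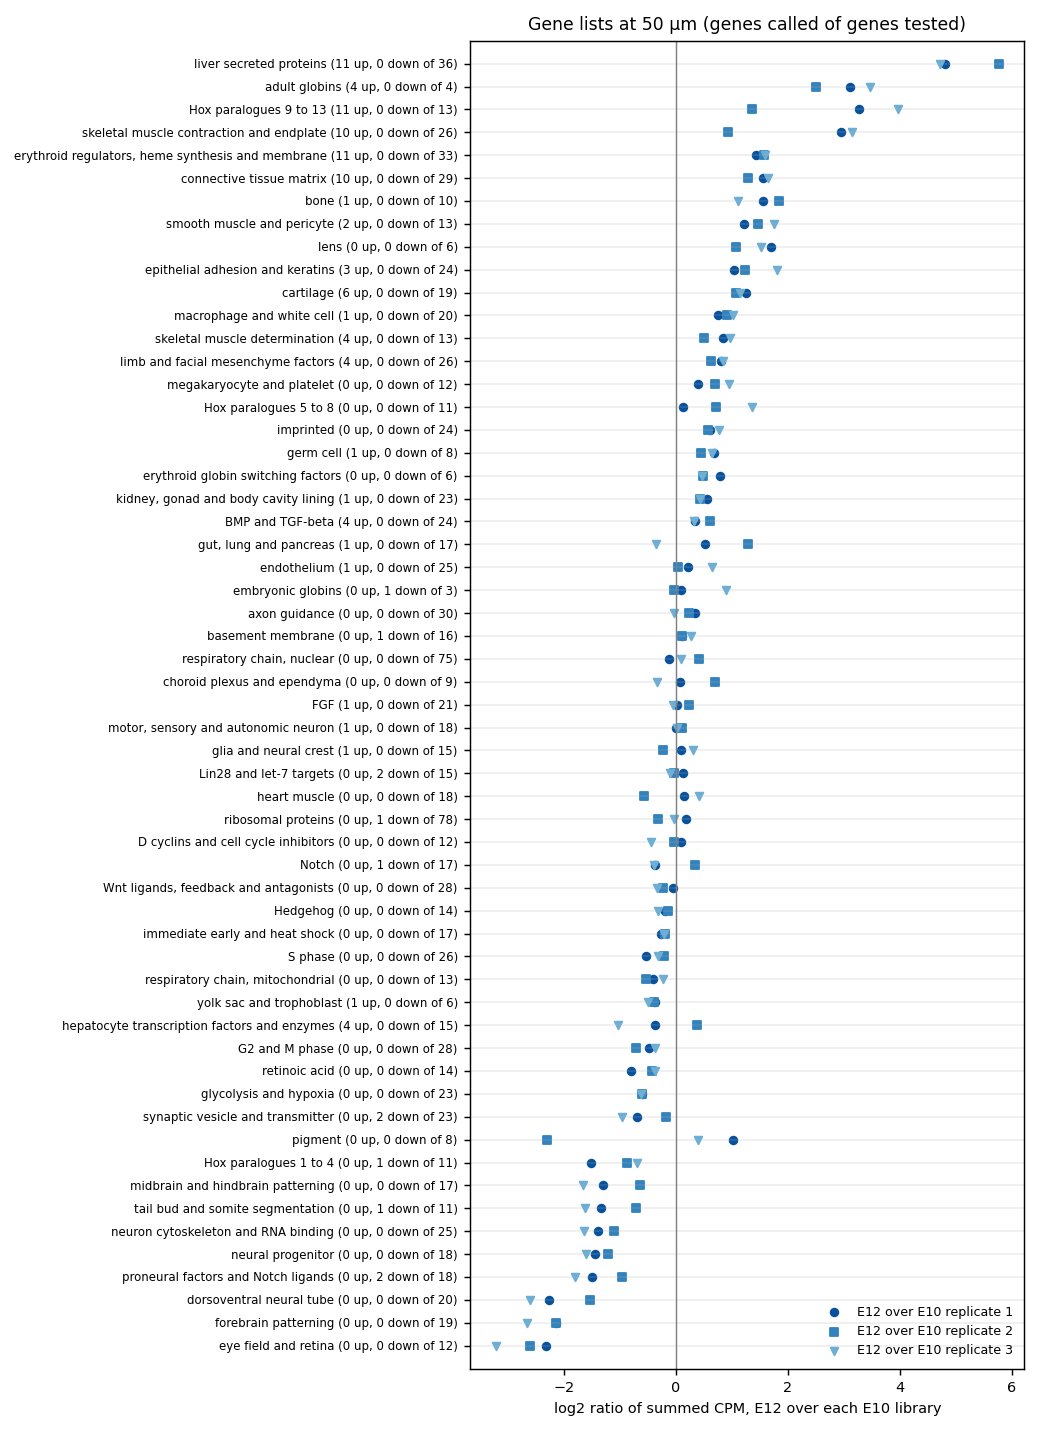
Log2 ratio of the summed CPM of each gene list at E12 over each E10 replicate, 3 points per list, with the numbers of called and tested genes after each name. Liver secreted proteins lie highest and eye field and retina genes lowest, the 3 points of a list often spread widely (as for muscle contraction, where replicate 2 is nearest to E12), and the forebrain, neuron and neural progenitor lists lie below 0 without a call.

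Hox genes give a readout of position along the body axis, since groups with higher numbers are switched on toward the tail and the tips of the limbs. Of 13 tested genes of paralogue groups 9 to 13, 11 were higher at E12 and none lower, and the median log2 fold change was 7.82, or 7.17 with genes without E10 counts set at their lower bound and those with 1 to 3 E10 counts at their count ratio, 9 genes in all. Hoxa10 stood at 57.5 CPM against 0, 0.128 and 0 CPM (ratio 1629, counting interval 291 to 64538; edgeR adjusted p = 2.51e-05). Hoxc9 stood at 38.5 CPM against 0, 0.128 and 0 CPM (ratio 1091, counting interval 194 to 43269; edgeR adjusted p = 2.51e-05). Hoxd11 stood at 22.3 CPM with no E10 count, at least 210-fold higher (edgeR adjusted p = 0.00267). Hoxd13, the gene of the outermost limb and the genital bud, stood at 9.84 CPM with no E10 count, at least 92.8-fold higher (edgeR adjusted p = 0.00957). Hoxb9 behaved otherwise, at 18.5 CPM against 28.8, 114 and 17.8 CPM (edgeR adjusted p = 0.655). Genes of a Hox cluster overlap and have antisense partners, and use of strand is not stated, so reads of neighbours could not be separated with certainty. The 11 calls became 5, 8 or 7 without E10 replicate 1, 2 or 3 and 7 or 5 without either E11 25 µm library.

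The paralogue groups showed where along the clusters the sections differed. Group 10 summed to 145 CPM at E12 against 0.0946, 0.128 and 0.704 CPM. Group 11 summed to 36.7 CPM against 0, 0 and 0.101 CPM, and group 13 to 16.6 CPM against 0.189, 0.256 and 0.101 CPM. The E10 sections thus held almost no counts of groups 10 to 13. Group 4 summed to 35.2 CPM at E12 against 114, 60.2 and 52.8 CPM, and group 2 to 6.56 CPM against 30.1, 18.2 and 20.3 CPM. Hoxb1, the only called gene among 11 tested of groups 1 to 4, stood at 1.64 CPM against 9.93, 18.4 and 9.46 CPM (log2 fold change -2.97, SE 0.70, edgeR adjusted p = 0.049). That call was lost without any single E10 replicate or E11 25 µm library, with an edgeR adjusted p from 0.0926 to 0.117. Of 11 tested genes of groups 5 to 8, edgeR called 0, 2 had an unadjusted p below 0.05 and DESeq2 called 0. Groups 9 to 13 made up 49.4% of all Hox counts at E12 against 7.01%, 30.5% and 8.67%. The high value of E10 replicate 2 was carried by Hoxb9: without it, groups 9 to 13 summed to 278 CPM at E12 and to less than 2 CPM in each E10 replicate.

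**Figure D4:**
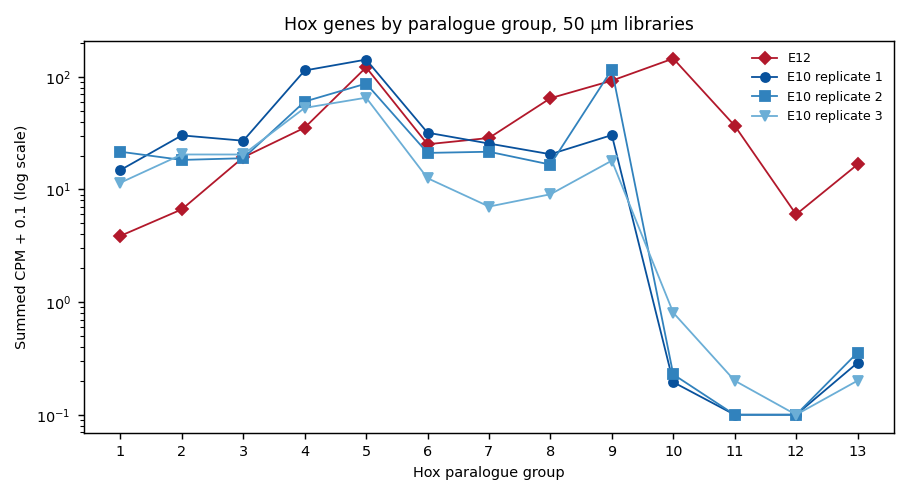
Summed level of each Hox paralogue group, as CPM plus 0.1 on a log axis, with 1 line per library. For group 10 the E12 library stands at 145 CPM and the E10 replicates at or below 0.704 CPM, and for groups 1, 2 and 4 every E10 replicate lies above E12.

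Most neural lists lay below the E10 range at E12, but few single genes passed the test. Exceptions included the list of motor, sensory and autonomic neuron genes, with a sum of 243 CPM against 243, 226 and 241 CPM, and those of axon guidance, of glia and neural crest and of choroid plexus and ependyma, whose sums lay within the E10 range. The motor and sensory list held 1 higher call, Runx3, a factor of sensory neurons and cartilage, at 20.8 CPM against 0.473, 1.02 and 1.01 CPM (edgeR adjusted p = 0.0113). That call was lost without E10 replicate 1 or 3 (edgeR adjusted p = 0.0838 or 0.0714). Of 18 tested neural progenitor genes, 15 lay below all E10 replicates and 2 above, with a median log2 fold change of -2.34. The list summed to 1863 CPM against 5106, 4316 and 5681 CPM. edgeR called 0 of them, 9 had an unadjusted p below 0.05, and DESeq2 called 6. Nes, an intermediate filament of progenitors, stood at 272 CPM against 853, 848 and 1061 CPM (edgeR adjusted p = 0.147). Sox2, which keeps progenitors undifferentiated, stood at 34.8 CPM against 259, 197 and 237 CPM (edgeR adjusted p = 0.355). Vim, a filament protein of progenitors and mesenchyme, stood at 1057 CPM against 2294, 2034 and 2457 CPM (edgeR adjusted p = 0.162). Without either E11 10 µm library, 10 of the progenitor genes were called lower.

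Neuron genes showed the same direction in their levels. Of 25 tested genes for neuronal cytoskeleton and RNA binding, 21 lay below all E10 replicates and 1 above, with a median log2 fold change of -1.27. edgeR called 0, 13 had an unadjusted p below 0.05, and DESeq2 called 6. Map1b, a microtubule protein of growing axons, stood at 501 CPM against 1472, 1876 and 1918 CPM (edgeR adjusted p = 0.1). Stmn2, which also acts on microtubules, stood at 214 CPM against 477, 408 and 639.9 CPM (edgeR adjusted p = 0.186). Without either E11 10 µm library, 7 neuron genes were called. Proneural factors and Notch ligands held 2 lower calls of 18, with 14 below the E10 range and a median of -2.44. Nhlh2, a factor of newly born neurons, stood at 17.4 CPM against 160.3, 127 and 169.9 CPM (log2 fold change -3.15, SE 0.55, edgeR adjusted p = 0.0148). Dll3, a Notch ligand of new neurons and somites, stood at 7.54 CPM against 79.6, 31.6 and 97.4 CPM (log2 fold change -3.21, SE 0.72, edgeR adjusted p = 0.0476). Both calls were lost without E10 replicate 1 or 3, and 1 was lost without either E11 25 µm library. Of 23 synaptic genes, 2 were lower: Glra1, a glycine receptor subunit, at 2.13 CPM against 31.3, 22.7 and 39.0 CPM (edgeR adjusted p = 0.0235), and Scg3, a protein of secretory granules, at 21.6 CPM against 86.7, 50.7 and 98.4 CPM (edgeR adjusted p = 0.0496). Both were lost without any single E10 replicate or E11 25 µm library. Of the called genes named, Scg3 alone was called in fewer than 50% of alternatives.

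Genes that pattern the head were low in the E12 section. Of 19 tested forebrain genes, 16 lay below and none above the E10 replicates, and the list summed to 81.6 CPM against 360.3, 359.9 and 517 CPM. edgeR called 0, 5 had an unadjusted p below 0.05, and DESeq2 called 1. Otx2, which specifies forebrain and midbrain, stood at 3.44 CPM against 92.0, 93.7 and 177 CPM (edgeR adjusted p = 0.364). Eye field and retina genes, 12 in number, gave 0 calls with edgeR, 3 at an unadjusted p below 0.05 and 1 with DESeq2, with a median of -3.20. Pax6, a factor of eye and neural tube, stood at 10.2 CPM against 86.5, 107 and 221 CPM (edgeR adjusted p = 0.507). For 20 genes of the dorsoventral neural tube, 16 lay below the E10 range, edgeR called 0, 9 had an unadjusted p below 0.05 and DESeq2 called 5. The head genes thus lay mostly below the E10 range and the posterior Hox genes above it, and the part of the sampled body region in any of these differences was not tested.

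By pixels, the neural progenitor list marked 29.3% of the E12 section against 79.2%, 71.5% and 85.3%. The neuron list marked 24.7% against 80.1%, 68.9% and 87.2%. The connective tissue list ran the other way, at 87.5% against 48.1%, 56.6% and 44.0%. In the E12 section the neuron list formed a patch rather than the arcs seen at E10. Sncg and Chgb were picked from the top of a ranking of genes by their ratio between neuron-list pixels and the others. At E12, Sncg, a synuclein of peripheral and motor neurons, stood at 279 CPM in the 374 neuron-list pixels and 22.1 CPM in the others. Chgb, a secretory granule protein, stood at 203 CPM and 15.4 CPM. Of the liver-list pixels, 22.8% also carried the neuron list, which was 35.0% of neuron-list pixels. These shares were near those over all E12 pixels, 24.7% for the neuron list and 38.0% for the liver list.

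**Figure D5:**
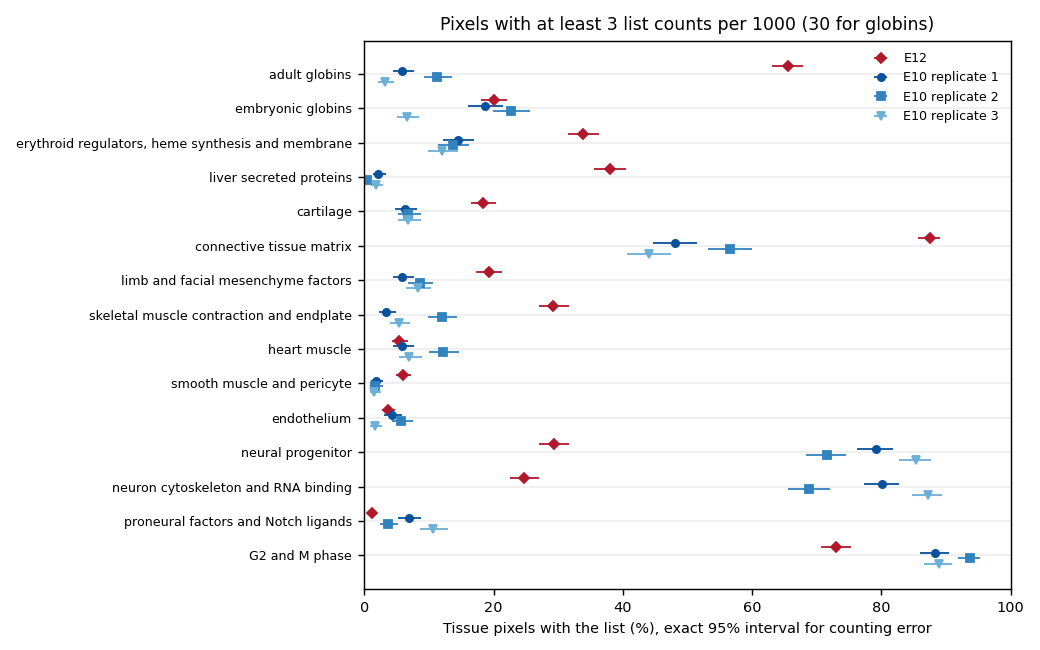
Percent of tissue pixels that held each of 15 gene lists, for the E12 section and the 3 E10 sections, with bars for exact 95% binomial intervals that cover counting error only. E12 lies above all E10 sections for adult globins (65.5%), liver (38.0%), cartilage, connective tissue and muscle contraction, and below all of them for neural progenitors and neurons.

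Neighbouring pixels at E12 were alike for the same genes. Moran's I, a measure that is near 0 for a random arrangement and nears 1 when neighbours match, was 0.681 for Hba-a1 at E12 against 0.402, 0.410 and 0.307 at E10. For Hbb-bs it was 0.565 against 0.0665, 0.0756 and 0.0729. Myl7 reached 0.632 at E12 and ranged from 0.211 to 0.666 at E10. The liver list reached 0.635 against 0.196, 0.108 and 0.180, and cartilage 0.339 against 0.142, 0.102 and 0.137. The neuron list was less clustered at E12, at 0.320 against 0.428, 0.391 and 0.414. Moran's I also depends on level and depth, whose part was not tested.

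Among the largest falls at E12 were a signalling adaptor, a surface protein and an RNA-binding protein of early embryos. Irs4, an adaptor of insulin signalling, stood at 0.820 CPM against 16.9, 17.4 and 16.2 CPM (log2 fold change -4.35, SE 0.89, edgeR adjusted p = 0.0295). Igdcc3, a surface protein of the immunoglobulin family, stood at 9.02 CPM against 131, 113 and 241 CPM (log2 fold change -4.17, SE 0.81, edgeR adjusted p = 0.0303). The calls of Irs4 and Igdcc3 were lost without any single E10 replicate or E11 25 µm library, with edgeR adjusted p from 0.0629 to 0.101. Lin28a, the RNA-binding protein that blocks let-7, stood at 1.31 CPM against 10.0, 6.79 and 16.3 CPM (log2 fold change -3.07, SE 0.65, edgeR adjusted p = 0.0324). It and Sall4, a factor of stem cells, at 5.90 CPM against 27.9, 20.9 and 57.1 CPM (edgeR adjusted p = 0.0421), were the 2 calls among 15 genes of the Lin28 and let-7 list, of which 13 lay below the E10 range. Both were lost without E10 replicate 1 or 3 and without either E11 25 µm library. Hmga2, a let-7 target, ran the other way at 1329.8 CPM against 424, 779 and 514 CPM without being called (edgeR adjusted p = 0.281).

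Stmn1, a microtubule protein of dividing and neural cells, stood at 248 CPM against 1230.0, 878 and 918 CPM (log2 fold change -2.05, SE 0.38, edgeR adjusted p = 0.0199). Lama1, a laminin chain of early basement membranes, stood at 19.2 CPM against 93.0, 87.1 and 93.1 CPM (log2 fold change -2.27, SE 0.38, edgeR adjusted p = 0.0115). Both calls were lost without E10 replicate 1 or 3, with edgeR adjusted p from 0.0512 to 0.0722. Hspa8, a chaperone made in every cell, stood at 50.2 CPM against 426, 391 and 652 CPM (log2 fold change -3.30, SE 0.44, edgeR adjusted p = 0.0029). Rpl29, a ribosomal protein and the only call among 78 of that list, stood at 49.2 CPM against 289, 362 and 313 CPM (log2 fold change -2.74, SE 0.43, edgeR adjusted p = 0.00803). Near-identical pseudogene copies can take the reads of a gene, and the levels of Hspa8 and Rpl29 are uncertain for that reason. Only pseudogene columns named after the gene with the ending -ps were searched for, and copies under other names were not. None so named was found for Hspa8, and those of Rpl29 held 21.8 CPM at E12 against 13.4, 8.83 and 10.6 CPM.

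The list of BMP and TGF-β pathway genes held a few higher calls. Of 24 tested, 4 were higher: Tgfb2, Tgfbi, Gdf5 and Bmp2. In the list 13 genes lay above all E10 replicates, 3 below and 8 within, with a median log2 fold change of 0.41. Tgfb2, a ligand of mesenchyme and heart cushions, stood at 223 CPM against 41.4, 63.5 and 38.0 CPM (log2 fold change 2.19, SE 0.45, edgeR adjusted p = 0.0295). Gdf5, the ligand of forming joints, stood at 10.3 CPM against 0.473, 0.512 and 0.805 CPM (log2 fold change 4.04, SE 0.86, edgeR adjusted p = 0.0324). The 4 calls became 0, 1 or 0 without E10 replicate 1, 2 or 3, and 0 without either E11 25 µm library. Among 28 genes of G2 and M phase, 22 lay below the E10 range and none above, with a median of -0.59; edgeR called 0, 4 had an unadjusted p below 0.05 and DESeq2 called 0. Top2a, the topoisomerase of dividing cells, stood at 928 CPM against 1139, 1450.5 and 1135 CPM (edgeR adjusted p = 0.649).

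None of the sex-linked genes was called. Xist, the transcript of the inactive X chromosome, had no count in any of them. Ddx3y stood at 103 CPM against 60.4, 59.9 and 57.1 CPM, Eif2s3y at 71.6 CPM against 36.5, 25.3 and 36.3 CPM, Uty at 54.1 CPM against 30.7, 50.3 and 34.9 CPM, and Kdm5d at 29.7 CPM against 26.6, 32.8 and 30 CPM. Ddx3y, Eif2s3y and Uty lay above all E10 replicates, with edgeR adjusted p of the genes on the Y chromosome from 0.13 to 0.987.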

How the data were processed

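For each library the authors deposited a table of raw counts, with pixels by gene symbols, and all values read were whole numbers. Per the labels' protocols, frozen sections under 7 µm thick were used, libraries were made with Nextera XT and paired reads of 100 bases were sequenced. The submitters' processing notes name CASAVA 1.8.2 and the human build GRCh38, although the symbols are of mouse genes. The aligner, annotation, use of strand and handling of duplicate molecules are not given in the sources used here.

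Tissue pixels were those whose total reached 0.1 of their own file's 95th percentile. Features typed as pseudogenes in GENCODE M21, and symbols ending in -ps, were left out (5270 of 30534). Counts were summed per library and tested with edgeR 4.0.16 (limma 3.58.1, R 4.3.3): scaling by TMM, filterByExpr by group, a robust quasi-likelihood fit of 6 group means to 11 libraries, two-sided, with Benjamini-Hochberg adjustment at 0.05. The variation between libraries of a group was 31.2%. DESeq2 1.42.0, other scalings, filters, thresholds and leaving out each library were alternatives. The script was tested on simulated data.

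Named genes are the 12 with the largest called change in each direction, with at least 10 CPM and E12 outside the E10 range, up to 4 called genes per list or the 2 most abundant where none was called, the globin and sex-linked genes, and the 5 genes with the highest Moran's I at E12; not all are printed, and some are not reported here. Other genes named in the text, such as Afp, Alb, Sox9, Col2a1, Klf1, Gata1, Otx2, Pax6, Pax3 and Hoxb9, were chosen after their values were seen. The members and lists were chosen with earlier results of these data known. Lower bounds set the E10 group at a floor of 3 counts over its libraries, and ratios with 1 to 3 E10 counts carry a 95% counting interval. Shares of pixels and of globin counts carry exact Clopper-Pearson intervals, which cover counting error only. Moran's I was computed over the 4 nearest neighbours on log2 of counts per 10000 plus 1.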

Additional observations from a re-analysis of the deposited data

How the results depend on the processing

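All calls rest on 1 E12 library and on a spread shared with other groups. With edgeR, the count of 346 calls (310 higher, 36 lower) was 1409 (968 higher, 441 lower) with no filter on low counts and 1402 (972 higher, 430 lower) with the 50 µm libraries only, which leaves 2 residual degrees of freedom. It was 63 (50 higher, 13 lower) with each pixel thinned to 500 counts, and the cause was not tested. DESeq2 called 188 lower genes in place of 36. Leaving out 1 library at a time gave 45 to 1015 calls, 41 to 748 higher and 4 to 268 lower. Of the E12 shares of pixels, those at 2 and at 5 counts of a list (20 and 50 for globins) were 78.5% and 46.3% for adult globins, 49.1% and 25.0% for liver, 31.4% and 9.05% for cartilage, 93.7% and 73.2% for connective tissue, 41.3% and 20.5% for muscle contraction, 9.58% and 3.30% for heart, 43.4% and 9.71% for neurons, and 50.2% and 7.66% for neural progenitors. At 2000 counts per pixel they were 33.2% for liver, 13.3% for cartilage, 24.8% for muscle contraction, 3.5% for heart, 18.3% for neurons and 22.0% for neural progenitors. With a tissue threshold of 0.25 they were 61.7% for adult globins and 25.2% for muscle contraction. In 30 of these 32 alternatives, E12 stayed on the same side of the E10 range; the exceptions were heart at 5 counts and at the threshold of 0.25. No named gene reversed. No paired analysis was possible because E12 has 1 library and replicate numbers follow accession order.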

Other observations

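The genes given here belong to no list used above, except Igf2, and were chosen after their values were seen. Of the 4 nuclear factor I genes, which act late in the maturation of many tissues, Nfia, Nfib and Nfix were called higher at E12. Nfix stood at 83.6 CPM at E12 against 6.62, 6.02 and 10.8 CPM in E10 replicates 1 to 3 (log2 fold change 3.40, SE 0.53, edgeR adjusted p = 0.00803). Nfib stood at 689 CPM against 113, 147 and 110.1 CPM (log2 fold change 2.44, SE 0.50, edgeR adjusted p = 0.0323). Nfia stood at 302 CPM against 56.9, 82.7 and 87.2 CPM (log2 fold change 1.97, SE 0.45, edgeR adjusted p = 0.0437). In each of these 3 genes the E10 replicates did not overlap with the E12 library. That held for every called gene, and 35.3% of all tested genes lay above all E10 replicates. Nfic, the other member, was not called (edgeR adjusted p = 0.158). Without E10 replicate 1 no call remained, with edgeR adjusted p = 0.0648 for Nfix, 0.14 for Nfib and 0.166 for Nfia. Without replicate 3, Nfia and Nfib were lost at 0.147 each, and without replicate 2 at 0.092 and 0.0693. Without either E11 25 µm library, Nfia was lost at 0.086 or 0.0891.

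Igf1, Igfbp5 and Lgals1 were also called. Igf1, insulin-like growth factor 1, stood at 283 CPM against 26.1, 60.6 and 27.2 CPM (log2 fold change 2.86, SE 0.49, edgeR adjusted p = 0.0175). Igfbp5, a protein that binds it, stood at 938 CPM against 182, 263 and 251 CPM (log2 fold change 1.98, SE 0.36, edgeR adjusted p = 0.0175). Lgals1, a galectin of mesenchyme and muscle, stood at 1258 CPM against 195, 306 and 221 CPM (log2 fold change 2.35, SE 0.49, edgeR adjusted p = 0.0318). The calls of these 3 genes were lost without E10 replicate 1 or 3, with edgeR adjusted p from 0.0764 to 0.147, and that of Lgals1 also without E10 replicate 2 or either E11 25 µm library (0.0545 to 0.0638). The imprinted growth factor Igf2 stood at 1396 CPM against 472, 567 and 259 CPM and was not called (edgeR adjusted p = 0.257).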
